A study of Mus musculus with 80 samples.

Results

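The cells described here were 34 Drd2-EGFP neurons of the mouse dorsomedial striatum, divided by how brightly each of them fluoresced when it was sorted. They were chosen by 4 criteria from the 80 single cells of the study. Each was labelled with the marker gene Drd2, lay on one of 2 sorting plates (FACS051_5 and FACS086_4), had no more than 100 TPM of Chat (the enzyme that makes acetylcholine, and the mark of cholinergic interneurons) and had at least 2000 genes above 1 TPM. TPM is a transcript level scaled for gene length and for the total of the cell. Of the 40 Drd2-labelled cells, 3 lay on another plate, 2 were left out for Chat and 1 for too few genes. A cell was called EGFP bright when its label value in the 525/50 channel, the sorter's EGFP detector, lay above the median of these cells on its own plate, and EGFP dim when it lay at or below that median. This gave 8 bright and 8 dim cells on plate FACS051_5 and 9 bright and 9 dim cells on plate FACS086_4.

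All cells came from adult mice of the strain Drd1a-TdTomatohet;Drd2-EGFPhet, which are heterozygous for 2 BAC transgenes, and the labels name no drug treatment. By the methods, mice of this cross received an injection of India ink and the nuclear dye Hoechst into the dorsomedial striatum to mark the region, and tissue was digested with papain. In the Drd2-EGFP line, EGFP is made from a transgene that carries regulatory sequence of Drd2, not from the Drd2 gene itself, and it is known to be made in cholinergic interneurons as well as in projection neurons. Single cells were sorted by FACS, their cDNA was made with the SMARTer v3 kit and it was sequenced on a MiSeq. The labels name no animal, so the bright and the dim cells were each taken as 1 sample. The cells are therefore described without tests, and every percentage of cells is given with an exact Clopper-Pearson 95% interval that covers counting error only.

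Striatal medium spiny neurons (MSN) are GABAergic projection neurons, and those that make the D2 dopamine receptor (D2 MSN) send the indirect pathway to the globus pallidus. The receptor, encoded by Drd2, couples to inhibitory G proteins and lowers cyclic AMP, opposite to the adenosine receptor encoded by Adora2a. Fluorescence of a reporter such as EGFP reads a protein that lasts for a day or more, whereas single-cell RNA sequencing reads the transcripts present when the cell was lysed.

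On plate FACS051_5 the fluorescence of dim cells ran from 502 to 862 sorter units and that of bright cells from 868 to 1164. On plate FACS086_4 it ran from 615 to 870 in dim cells and from 876 to 1765 in bright cells. The cells next to the median differed little in fluorescence. On FACS051_5 the last dim cell (862 units) had 6423 genes and 3.25 TPM of Drd2, and the first bright cell (868 units) had 4927 genes and Drd2 listed at 0. On FACS086_4 the last dim cell (870 units) had 5967 genes and 35.9 TPM of Drd2, and the first bright cell (876 units) had 4964 genes and Drd2 listed at 0. Fluorescence in the 610/20 channel, which detects TdTomato, overlapped between the groups, with medians of 61 units in bright and 54 in dim cells on FACS051_5, and of 107 and 131 on FACS086_4.

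Markers of D2 MSN were found in both groups, most of them in part of the cells. Penk, which encodes the opioid peptide precursor proenkephalin, was found in every cell, at 1427 TPM or more. Gpr6 was found in 13 of 17 bright and 15 of 17 dim cells, and Gpr52 in 8 and 9. Sp9 was found in 7 bright and 7 dim cells, P2ry1 in 6 and 6, and Nt5e in 5 and 8. Grik3 was found in 5 bright and 9 dim cells, and B3gat1 in 11 and 9. Drd2 and Adora2a are given below. Ppp1r1b, which encodes the signalling protein DARPP-32 of all MSN, was also found in every cell, at 298 TPM or more. Drd1, the D1 receptor gene, reached at most 4.05 TPM in any cell. Other markers of MSN with that receptor (D1 MSN) differed. Pdyn, Isl1, Slc35d3 and Ebf1 stayed at 2.42 TPM or less, and Chrm4 was listed at 0 in every cell. Sfxn1, in contrast, was found in 10 of 17 bright and 14 of 17 dim cells, at up to 219 TPM. Tac1 reached 1082 TPM and Lingo2 19.5 TPM in a bright cell, and Fxyd7 reached 231 TPM in a dim cell. The 7 markers of cholinergic interneurons summed to at most 3.87 TPM in a bright and 2.98 TPM in a dim cell, and they were listed at 0 in 13 of 17 bright and 13 of 17 dim cells. The summed level of oligodendrocyte markers had a median of 1.77 TPM in bright cells (range 0 to 107) and 25.1 TPM in dim cells (0 to 84.8). The summed astrocyte markers lay between 3.15 and 14.2 TPM in bright cells and between 0.983 and 232 TPM in dim cells. The summed microglia markers reached 7.84 TPM in bright and 20.8 TPM in dim cells. The summed endothelial markers ran from 13.8 to 86.5 TPM in bright cells and from 14.6 to 470 TPM in dim cells. Their sums had medians of 32.5 TPM in bright and 35.4 TPM in dim cells. The means were 34.6 TPM in bright and 68.5 TPM in dim cells, the latter including the cell at 470 TPM. The endothelial marker Pecam1 alone was found in every cell, with a mean of 30.5 TPM over all cells. The deposited genes held only 3 of 6 endothelial, 3 of 8 microglia, 5 of 8 oligodendrocyte and 7 of 8 astrocyte markers. What part such transcripts have in the differences below was not tested.

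Fewer genes were found in EGFP bright than in EGFP dim cells on both plates, a gene being found in a cell when it was above 1 TPM. On FACS051_5 the 8 bright cells ran from 2183 to 7942 genes with a median of 5277, and the 8 dim cells ran from 3597 to 7813 with a median of 6641.5. On FACS086_4 the 9 bright cells ran from 2741 to 6076 genes with a median of 4187, and the 9 dim cells ran from 2923 to 7274 with a median of 5967. The ranges overlapped on both plates, and the cell with the most genes of all, 7942, was a bright one. The difference of the medians, bright minus dim, was -1364.5 genes on FACS051_5, -1780 on FACS086_4 and -1313 over both plates together.

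Within each plate, the number of genes and the fluorescence were ranked in opposite order, with scatter. Spearman's rho between fluorescence and genes found was -0.41 over the 16 cells of FACS051_5 and -0.55 over the 18 cells of FACS086_4, where cells share the plate and may share a sort. The 3 brightest cells of FACS086_4, at 1540, 1614 and 1765 units, had 3259, 3294 and 2741 genes. On FACS051_5 the 2 brightest cells, at 1134 and 1164 units, had 6039 and 5627 genes, and the lowest number, 2183, was that of a cell at 973 units.

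**Figure D1:**
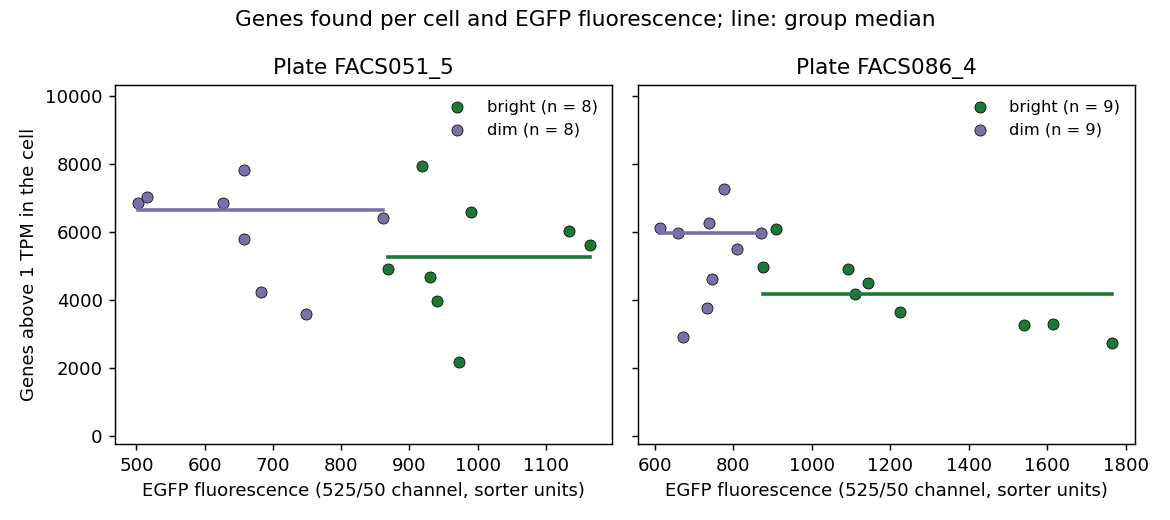
Genes above 1 TPM in each cell (vertical axis) against its EGFP fluorescence in sorter units (horizontal axis), in 1 panel per plate, with bright cells in green, dim cells in purple and a line at each group's median. The bright median is below the dim median on both plates (5277 against 6641.5 and 4187 against 5967), and the ranges overlap.

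The genes missing from bright cells lay mostly at low and middle levels. Over both plates, the median number of genes above 10 TPM was 3042 in bright and 3827 in dim cells, and the number above 100 TPM was 1435 and 1594. Above 1000 TPM the order turned, with 85 genes in bright and 79 in dim cells. The 100 highest genes of a cell held a median of 47.0% of its listed TPM in bright and 42.9% in dim cells. The summed TPM of the listed genes had medians of 850248 in bright and 851274 in dim cells. Taking all cells of a group, 14089 genes were found in at least 1 bright cell and 15151 in at least 1 dim cell of FACS051_5, and 13035 and 15012 on FACS086_4. Genes found in every cell of the group numbered 645 in bright and 922 in dim cells of FACS051_5, and 454 and 593 on FACS086_4.

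The transcript of Drd2 (chromosome 9, 49340627 to 49408177, plus strand, GRCm38) was not higher in the brighter cells. Its level ran from 0 to 126 TPM with a median of 30.7 in bright cells of FACS051_5, and from 3.25 to 93.7 TPM with a median of 57.2 in the dim cells of that plate. On FACS086_4 it ran from 0 to 72.9 TPM with a median of 2.55 in bright cells, and from 0 to 459 TPM with a median of 12.6 in dim cells. The groups overlapped widely on both plates. The log2 fold of the mean TPM plus 1, bright over dim, was -0.38 on FACS051_5, -2.49 on FACS086_4 and -1.45 over both plates.

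The mean of Drd2 in dim cells rested on few cells. On FACS086_4, the dim cells at 811 and 615 units held 459 and 306 TPM, and the other 7 dim cells held 67.4 TPM or less. Without these 2 cells, which had the highest Drd2 of all 34, the log2 fold over both plates was -0.38. Drd2 was found in 11 of 17 bright cells (64.7%, interval 38.3 to 85.8%) and in 14 of 17 dim cells (82.4%, interval 56.6 to 96.2%), and these intervals overlap. It was listed at 0 in 6 bright and 2 dim cells. Spearman's rho between fluorescence and Drd2 was -0.27 over the 16 cells of FACS051_5 and -0.08 over the 18 cells of FACS086_4. Drd2 also moved with the number of genes in a cell on FACS051_5 (rho 0.37) and less so on FACS086_4 (rho 0.03), and the part of genes found in the Drd2 difference was not tested. The EGFP transcript was not analysed here.

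**Figure D2:**
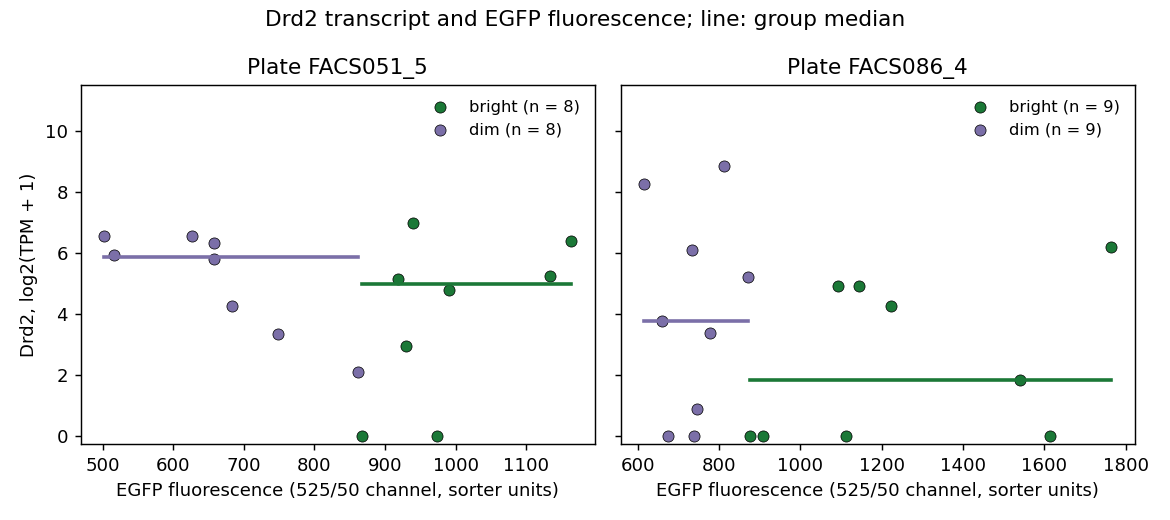
Drd2 as log2(TPM + 1) in each cell (vertical axis) against its EGFP fluorescence in sorter units (horizontal axis), in 1 panel per plate, with bright cells in green, dim cells in purple and a line at each group's median. The bright median is below the dim median on both plates, cells listed at 0 occur at both low and high fluorescence, and 2 dim cells of FACS086_4 stand highest.

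Of 8 D2 MSN markers compared across genes, 0 were higher and 2, Drd2 and Penk, were lower in bright cells on both plates, when 31.7% of all genes compared were lower. Adora2a had medians of 133 TPM in bright and 114 TPM in dim cells of FACS051_5, and of 12.6 and 37.5 TPM on FACS086_4. It was found in 14 of 17 cells of either group (82.4%, interval 56.6 to 96.2%), and its log2 fold was 0.13 and -0.13 on the 2 plates. Penk had medians of 16938 TPM in bright and 14516 TPM in dim cells of FACS051_5, and of 7901 and 11728 TPM on FACS086_4, with log2 folds of -0.08 and -0.48. Gpr6, an orphan receptor gene typical of D2 MSN, had medians of 202 and 224 TPM on FACS051_5 and of 148 and 179 TPM on FACS086_4, with log2 folds of -0.10 and 0.24, while its mean log2(TPM + 1) differed by -1.07 and -1.03. Gpr52, an orphan receptor gene that couples to cyclic AMP, had a mean of 183 TPM in bright and 90.7 TPM in dim cells of FACS051_5, but 13.3 and 91.8 TPM on FACS086_4, so its log2 folds of 1.0 and -2.70 pointed opposite ways. The ranges of bright and dim cells overlapped for each of these genes on each plate.

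Across genes, 7520 genes averaged 10 TPM or more over the 34 cells and were compared by the log2 fold of mean TPM plus 1 on each plate. On FACS051_5, 1382 genes (18.4%) were more than 2-fold higher and 1997 (26.6%) more than 2-fold lower in bright cells. On FACS086_4 the numbers were 1479 (19.7%) and 2619 (34.8%). On both plates at once, 320 genes (4.26%) were more than 2-fold higher and 802 (10.7%) more than 2-fold lower. For 69 of the 320 and 167 of the 802, the lower group was listed at 0 in all its cells on a plate at least, so the size of those folds depends on the added 1 TPM. All these genes had a median log2 fold of -0.14 on the first and -0.29 on the second plate.

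The 2 plates did not rank genes alike. Spearman's rho of the log2 folds between plates was 0.01 across the 7520 genes, which are not independent replicates, and 51.3% of the 7263 genes with a fold other than 0 on each plate had the same sign on both. Any fold higher on both plates was shown by 1341 genes (17.8%), and any fold lower by 2383 (31.7%). The share of cells in which a gene was found is counted from the same values as the number of genes per cell, so it is no separate observation. It was lower in bright cells for 45.8% of genes and higher for 26.7% on FACS051_5, and lower for 52.9% and higher for 23.1% on FACS086_4.

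The plates were more alike for genes that dropped out of no cell. For the 226 genes found in every one of the 34 cells, a set taken after the values were seen, rho between plates was 0.31, and 64.2% had the same sign. These genes are not independent replicates, and most mRNAs of mitochondrial DNA are among them. For the 631 genes found in at least 90% of cells, rho was 0.09 and 55.2% had the same sign. For the 3606 genes found in at least 50% of cells, the values were 0.03 and 52.6%. Of the 226 genes, 83 (36.7%) were higher and 62 (27.4%) lower in bright cells on both plates, with median log2 folds of 0.06 and 0.07 on the plates in that order. More than 2-fold differences on both plates were shown by 1 gene in each direction, Wtap and Calb1.

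**Figure D3:**
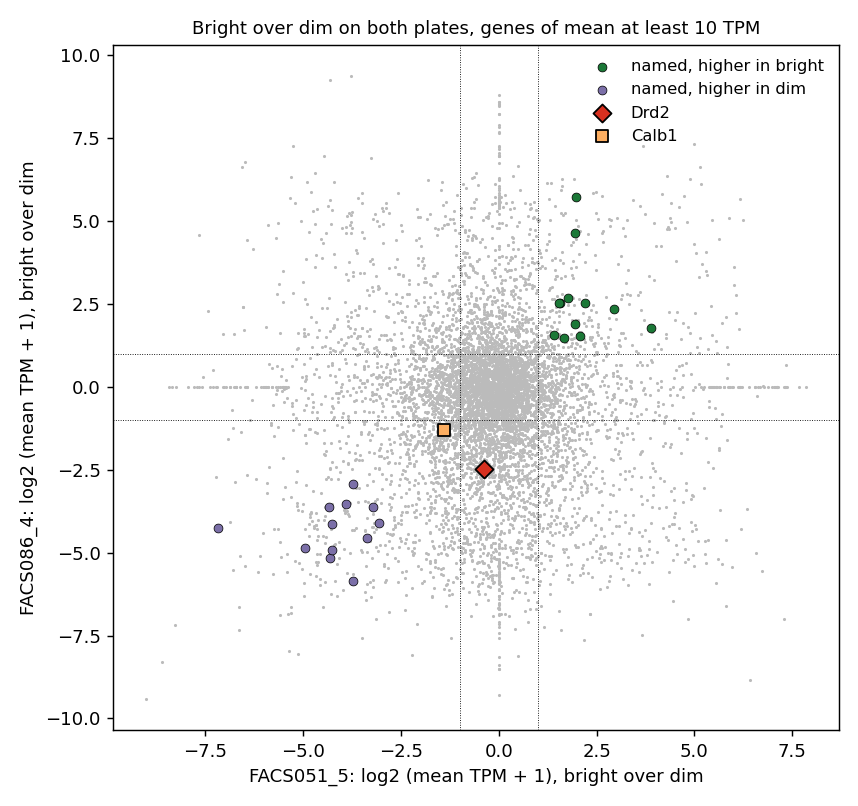
Log2 fold of mean TPM plus 1, bright over dim, on plate FACS051_5 (horizontal axis) and plate FACS086_4 (vertical axis) for 7520 genes (grey), with dotted lines at 2-fold, the named genes in green and purple, Drd2 as a red diamond and Calb1 as an orange square. The grey cloud shows no slope (rho 0.01), and genes on the axis at 0 were listed at 0 in both groups of a plate.

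Calb1 (chromosome 4, 15881264 to 15908064, plus strand, GRCm38), which encodes the calcium buffer calbindin and marks the matrix compartment of the striatum, was lower in bright cells on both plates. It ran from 71.8 to 558 TPM with a median of 262 in bright cells of FACS051_5 and from 22.6 to 1728 TPM with a median of 477 in dim cells. On FACS086_4 it ran from 26.2 to 469 TPM with a median of 132 in bright cells and from 48.3 to 969 TPM with a median of 436 in dim cells. The groups overlapped, with log2 folds of -1.41 on FACS051_5 and -1.32 on FACS086_4. Spearman's rho between Calb1 and fluorescence was -0.36 (16 cells) and -0.34 (18 cells). Among the 7 striosome and matrix markers compared, 4 were lower and 0 higher in bright cells on both plates, beside 31.7% lower and 17.8% higher among all genes compared. The other 3 lower ones were Rasgrp2, a guanine nucleotide exchange factor of the matrix (-0.90 and -0.78 on the log2 scale), the transcription factor gene Id4 (-1.81 and -0.09) and Gda, which encodes guanine deaminase (-0.18 and -1.04). The list mixes markers of both compartments. Its remaining members changed sign between the plates, namely Lypd1 (-1.92 and 1.34), Nnat (-0.87 and 1.06) and Epha4 (-0.24 and 0.06).

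Eno2, the neuronal enolase of glycolysis, was also found in every cell, with log2 folds of -0.71 and -0.87, and Aplp1, a relative of the amyloid precursor gene, had -0.61 and -1.08. Foxp1, a transcription factor of MSN, had medians of 344 TPM in bright and 393 TPM in dim cells of FACS051_5 and of 246 and 437 TPM on FACS086_4, with log2 folds of -0.46 and -0.92. In the other direction, Wtap, a subunit of the complex that methylates adenosine in RNA, had medians of 25.4 TPM in bright and 16.3 TPM in dim cells of FACS051_5, and of 33.5 and 12.2 TPM on FACS086_4, with log2 folds of 1.32 and 1.84. Its ranges overlapped, and its highest bright values were 210 and 89.8 TPM on FACS051_5 and 393 and 313 TPM on FACS086_4.

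The mRNAs encoded by mitochondrial DNA leaned towards the bright cells. They encode subunits of the respiratory chain and of ATP synthase. Of the 13, 11 were higher in bright cells on both plates and 0 were lower on both, beside 17.8% and 31.7% of all genes compared, and none passed 2-fold. All but mt-Nd4l were among the 226 genes found in every cell. Of those 226 genes, 36.7% were higher and 27.4% lower on both plates. The median log2 fold of the 13 mitochondrial mRNAs was 0.47 on FACS051_5 and 0.30 on FACS086_4. For mt-Co1, the cytochrome oxidase subunit that holds part of its catalytic centre, the bright cells of FACS051_5 ran from 3680 to 15077 TPM with a median of 9010 and the dim cells from 2823 to 13520 with a median of 5600. On FACS086_4 the medians were 5289 TPM in bright and 3908 TPM in dim cells, and the log2 folds were 0.54 and 0.75. The other 2 mRNAs, mt-Nd1 and mt-Nd4l, were higher on FACS051_5 (0.32 and 0.59) and lower on FACS086_4 (-0.02 and -0.66).

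Together the 13 mRNAs held a median of 8.60% of the listed TPM in bright and 6.65% in dim cells of FACS051_5, and 7.33% and 5.79% on FACS086_4. The ribosomal RNAs of the mitochondrion, mt-Rnr1 and mt-Rnr2, had log2 folds of 0.43 and 0.62 on FACS051_5 and of 0.52 and 0.32 on FACS086_4. Among cells with at least 4000 genes, divided anew at their medians, 6 of the 13 mRNAs were higher on both plates and 1 was lower. The highest shares lay in cells with few genes, such as the bright cell of FACS051_5 with 2183 genes at 19.4%. Of 42 nuclear genes of oxidative phosphorylation, 13 were higher and 10 lower on both plates, beside 17.8% higher and 31.7% lower among all genes compared, with a list median of 0.11 against -0.20 over both plates and 0 past 2-fold in either direction. Among the 226 genes found in every cell, 36.7% were higher and 27.4% lower on both plates.

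**Figure D4:**
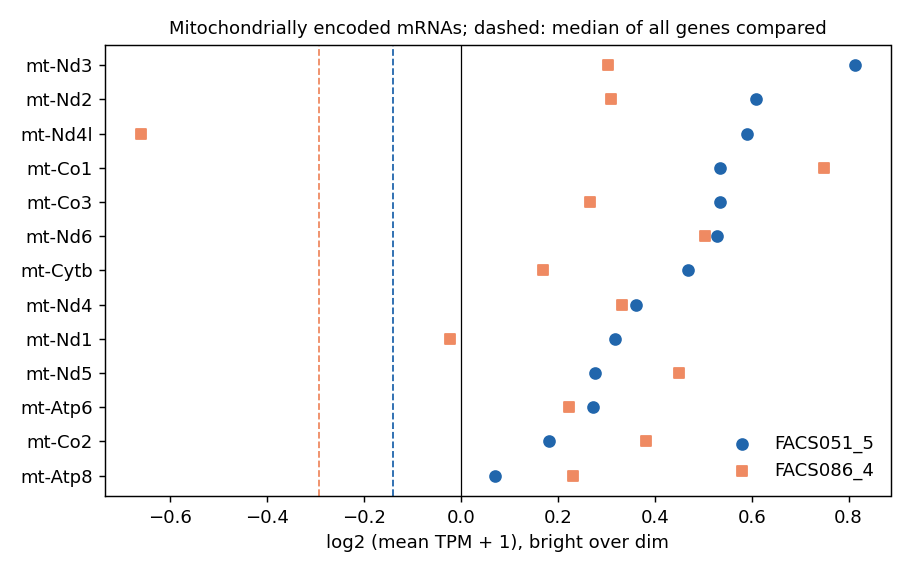
Log2 fold of mean TPM plus 1, bright over dim (horizontal axis), of the 13 mitochondrially encoded mRNAs (vertical axis), with blue circles for plate FACS051_5, orange squares for plate FACS086_4 and dashed lines at the median of all genes compared on each plate. Points of mt-Nd1 and mt-Nd4l lie below 0 on FACS086_4, and the other 11 genes lie above 0 on both plates.

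Genes of the synapse were more often lower than higher in bright cells, as were all genes compared (31.7% lower and 17.8% higher on both plates). Of 21 synaptic vesicle genes, 1 was higher and 9 were lower on both plates, with Rims1, an organiser of the release site, past 2-fold (-1.09 and -1.50), although without its highest cell, a dim one, the fold over both plates was -0.56 instead of -1.42. Syt1, the calcium sensor of release, was found in every cell and had medians of 118 TPM in bright and 202 TPM in dim cells of FACS051_5 and of 194 and 348 TPM on FACS086_4, with log2 folds of -1.07 and -0.35. Of 13 glutamate receptor genes, 1 was higher and 8 were lower, with the metabotropic receptor gene Grm4 (-1.77 and -3.64) among those past 2-fold. The list median over both plates was -0.27 for vesicle genes and -0.40 for glutamate receptors, beside -0.20 for all genes. Of 9 GABA-A receptor genes, 2 were higher and 4 lower. Among them Gabrd, which encodes the delta subunit of receptors outside synapses, had medians of 43.5 TPM in bright and 203 TPM in dim cells of FACS051_5 and of 89.0 and 127 TPM on FACS086_4, with log2 folds of -1.22 and -1.02.

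Of 17 potassium channel genes, 6 were higher and 8 lower on both plates, beside 17.8% higher and 31.7% lower among all genes compared, which is also the background of the lists that follow here. Kcnma1, the large-conductance calcium-activated channel, was past 2-fold higher by its means (1.37 and 1.03), although its median was lower in the bright cells of FACS086_4 (5.58 against 32.9 TPM) and 1 bright cell there held 392 TPM. The difference of its mean log2(TPM + 1) over both plates was -0.27, and without that highest cell its log2 fold was 0.37. The accessory subunit gene Kcnab2 was lower (-2.29 and -2.18), with -2.19 over both plates and -0.41 without its highest cell, a dim one. Of 28 genes of D2 receptor signalling, 6 were higher and 9 lower. The calcium sensor gene Ncs1, whose protein binds the D2 receptor, was past 2-fold higher (1.47 and 2.42), and Ppp2r2c, a regulatory subunit of protein phosphatase 2A, was past 2-fold lower (-1.74 and -1.41). The log2 fold of Ncs1 over both plates was 1.87, and 1.16 without its highest cell. By the difference of mean log2(TPM + 1), Ncs1 came to 0.87, below 2-fold. Of 15 general MSN markers, 2 were higher (Ppp1r1b and Bcl11b, the latter a transcription factor gene of MSN) and 5 lower, with 0 past 2-fold in either direction. Both genes near Drd2 that could be compared were lower on both plates, the cell adhesion gene Ncam1 (-0.79 and -0.25) and Usp28, which encodes a deubiquitinase (-0.53 and -0.12).

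Lists of general cell function are given by the same counts, again beside 17.8% higher and 31.7% lower among all genes compared on both plates. Of 79 cytosolic ribosomal protein genes, 15 were higher and 22 lower, with 3 past 2-fold lower (Rpl22, Rpl5 and Rps27l). Without its highest dim cell, Rpl5 had -0.38 over both plates instead of -1.12. Of 25 proteasome subunits, 3 were higher and 9 lower. Of 21 translation factors, 5 were higher and 7 lower, and Eif4e, the cap-binding factor, was past 2-fold lower, with medians of 153 TPM in bright and 376 TPM in dim cells of FACS051_5 and of 2.12 and 263 TPM on FACS086_4. Of 23 cytoskeleton and axonal transport genes, 0 were higher and 7 lower, with the neurofilament gene Nefm past 2-fold (-2.73 and -1.99). Of 19 heat shock and chaperone genes, 7 were higher and 6 lower, with the co-chaperone gene Stip1 past 2-fold higher (1.96 and 1.32) and the chaperonin gene Cct3 past 2-fold lower (-1.32 and -1.48). Early response genes, which neurons switch on after activity or stress, were higher for 2 and lower for 4 of 12 genes. Their summed level had medians of 946 TPM in bright and 707 TPM in dim cells of FACS051_5, and of 380 and 762 TPM on FACS086_4. Counts of genes higher and lower were 2 and 3 of 14 for the unfolded protein response, 2 and 4 of 15 for glycolytic enzymes, 1 and 5 of 11 for lysosomal genes and 3 and 2 of 10 for neuropeptides.

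The genes with the largest folds shared by both plates were mostly genes found in part of the cells. They were ranked by the smaller of their 2 plate folds among genes that 50% or more of the higher group's cells held on each plate, with the mean of log2(TPM + 1) moving the same way, and the first 12 in each direction were named. Since the rule used these folds and the share of the higher group's cells, the folds and shares below describe how the genes were picked. The intervals of those shares are therefore no support for a difference. Among all genes compared, the share of cells with the gene was lower in bright cells on both plates for 25.5% and higher for 6.65%. Those lower in bright cells were Fip1l1, Clcc1, Rab12, Cox19, Gm17615, Fam229b, Ift46, Mcmdc2, Dopey1, 9530091C08Rik, Mkln1 and Gatad2b. Those higher were Tac1, Tmem126a, Snx32, Zfp12, Scand1, Ccdc174, Tmem167, Gm9790, Bptf, Itgb1bp1, Gnl3l and Zfand6. Gm9790 is annotated as a processed pseudogene, so its reads cannot be told apart with certainty from those of its parent gene.

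Rab12 (chromosome 17, 66494512 to 66519729, minus strand), a small GTPase of endosome traffic, was among the most even of the lower genes. It was found in 6 of 17 bright cells (35.3%, interval 14.2 to 61.7%) and in 14 of 17 dim cells (82.4%, interval 56.6 to 96.2%). Its highest bright values were 21.9 TPM on FACS051_5 and 12.4 TPM on FACS086_4, while the dim medians were 34.1 and 88.3 TPM, and the log2 folds were -4.28 and -4.93. Cox19 (chromosome 5, 139336189 to 139351418, minus strand), a factor in the assembly of cytochrome oxidase, was found in 2 of 17 bright cells (11.8%, interval 1.46 to 36.4%) and in 12 of 17 dim cells (70.6%, interval 44.0 to 89.7%). On FACS051_5 it was at 0.857 TPM or less in every bright cell and had a dim median of 169 TPM. On FACS086_4 the dim median was only 1.47 TPM, and 1 bright cell held 36.3 TPM.

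Ift46, a component of the transport system of cilia, was found in 6 of 17 bright (35.3%, interval 14.2 to 61.7%) and 15 of 17 dim cells (88.2%, interval 63.6 to 98.5%), with means of 3.33 TPM in bright and 86.3 TPM in dim cells of FACS051_5 and of 7.17 and 99.6 TPM on FACS086_4. Clcc1, a chloride channel gene of the endoplasmic reticulum, was found in 5 bright (29.4%, interval 10.3 to 56.0%) and 12 dim cells (70.6%, interval 44.0 to 89.7%). Fip1l1, a factor in mRNA polyadenylation, was found in 7 bright (41.2%, interval 18.4 to 67.1%) and 11 dim cells (64.7%, interval 38.3 to 85.8%), and 1 dim cell at 696 TPM held most of its mean on FACS086_4. Mkln1, which encodes muskelin, was found in each dim cell, with dim medians of 11.1 and 12.6 TPM and bright medians of 4.22 and 4.99 TPM, and its folds of -3.06 and -4.11 rested on few dim cells, the highest at 458 and 284 TPM on FACS051_5. In each of these genes some dim cells lay within the range of the bright cells.

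Of the higher genes, Itgb1bp1 (chromosome 12, 21240825 to 21286284, minus strand), whose protein binds the tail of beta 1 integrin, was found in 13 of 17 bright cells (76.5%, interval 50.1 to 93.2%) and 8 of 17 dim cells (47.1%, interval 23 to 72.2%). Its medians were 82.2 TPM in bright and 2.62 TPM in dim cells of FACS051_5 and 113 and 0 TPM on FACS086_4, with log2 folds of 1.54 and 2.53. Tmem126a (chromosome 7, 90450700 to 90457229, minus strand), a mitochondrial membrane protein gene, was found in 12 bright (70.6%, interval 44.0 to 89.7%) and 8 dim cells (47.1%, interval 23 to 72.2%), with medians of 220 and 47.3 TPM on FACS051_5 and of 1.81 and 0 TPM on FACS086_4. Bptf, a subunit of the NURF chromatin remodeller, was found in 14 bright and 14 dim cells, with medians of 28.4 TPM in bright and 8.79 TPM in dim cells of FACS051_5 and of 66.5 and 23.4 TPM on FACS086_4. Bright and dim ranges overlapped in all 3.

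Tac1, the tachykinin precursor that produces substance P and marks D1 MSN, headed the higher genes through few cells. On FACS086_4 a bright cell at 1224 units held 1082 TPM and a dim cell at 745 units held 192 TPM, while on FACS051_5 a bright cell at 1134 units held 95.0 TPM. Every other cell was at 6.07 TPM or less. Without the cell at 1082 TPM the log2 fold over both plates was -0.65, against 2.40 with it. Drd1, another D1 marker, was at 0.30 TPM in that cell.

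**Figure D5:**
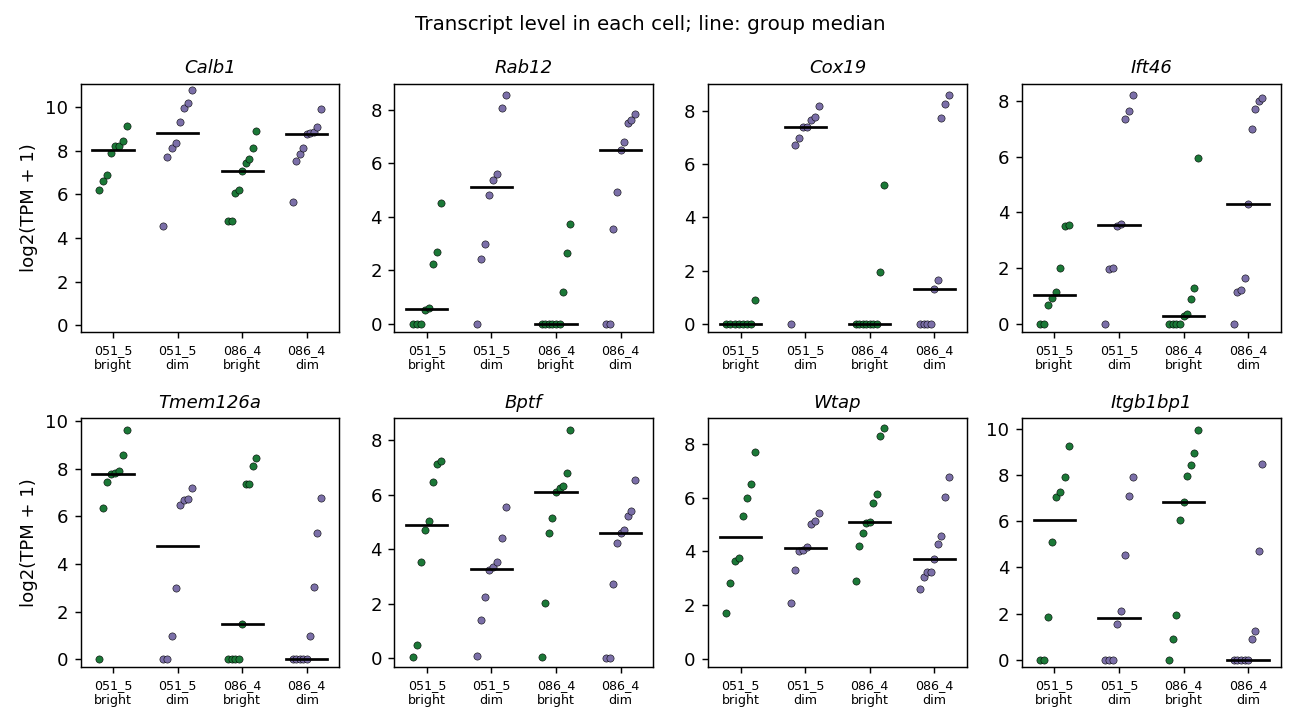
Level of 8 genes as log2(TPM + 1) (vertical axis) in each bright (green) and dim (purple) cell, by plate (FACS051_5 and FACS086_4, horizontal axis), with a line at each group's median and points sorted by value within a group. Calb1 and Wtap were found in every cell, whereas Rab12, Cox19, Ift46, Tmem126a and Itgb1bp1 were listed at 0 in some cells of both groups, and the groups overlap for each gene.

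One short gene model took a large part of the TPM. Gm29013 (chromosome 1, 105244425 to 105244661, plus strand), annotated as an unprocessed pseudogene and picked out after its values were seen, had medians of 39634 TPM in bright and 20678 TPM in dim cells of FACS051_5 and of 74487 and 38516 TPM on FACS086_4. It reached 277688 TPM in 1 bright cell, and its log2 folds were 0.70 and 0.68. Because TPM share a fixed total, the other genes of such a cell have less of it. With Gm29013 left out and the rest scaled to the same total, 368 genes were more than 2-fold higher and 792 lower in bright cells on both plates, the log2 fold of Drd2 over both plates was -1.33, and 12 of the 13 mitochondrial mRNAs were higher on both plates.

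The Drd1-labelled cells of the same plates were divided in the same way by their TdTomato fluorescence in the 610/20 channel, which gave 9 bright and 9 dim cells on FACS051_5 and 10 and 10 on FACS086_4. There the number of genes had the other order, with medians of 6191 in TdTomato bright and 4687 in TdTomato dim cells of FACS051_5, and of 6072.5 and 5766 on FACS086_4. Spearman's rho between fluorescence and genes found was 0.70 over 18 cells and 0.20 over 20 cells, against -0.41 and -0.55 for the Drd2-labelled cells. Drd1 itself had medians of 218 TPM in bright and 228 TPM in dim cells of FACS051_5 and of 180 and 169 TPM on FACS086_4. Of 7791 genes, 563 (7.23%) were more than 2-fold higher and 499 (6.4%) more than 2-fold lower in TdTomato bright cells on both plates, against the 4.26% and 10.7% given above for EGFP. With 1 sample in each group, the difference between the 2 reporters was not tested.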

How the data were processed

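Cells were sorted and sequenced as described above, and each cell is 1 sample of the series. The deposited values were TPM per gene and cell for 25160 genes, made by the authors after alignment with STAR 2.5.0 to mm10/GRCm38 and counting with featureCounts 1.5.1, per the labels and the study's methods. The tool that made the TPM is not given in the sources used here. TPM keep no depth, so depth per cell is unknown and cells could not be thinned to 1 depth. No column of the table lacked a sample (0 columns).

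Group means, medians, shares of cells above 1 TPM and log2 folds of mean TPM plus 1 were computed in Python 3.11.15 (pandas 2.3.3, scipy 1.17.1), separately for each plate. The fold code was tested on simulated data. The cells, gene lists and rules were chosen with earlier results of these data known. Genes were named by rule: Drd2, members of a described list, and, per direction, 12 genes with the largest smaller-of-plates fold among those with a mean of at least 10 TPM, found in 50% or more of the higher group's cells on each plate and with the same sign on the log2 scale. Genes named beside these, such as Wtap and Gm29013, were chosen after their values were seen. Gene positions are from GENCODE M21 (GRCm38). Lists for cortical neurons and other interneurons held no gene with a mean of at least 10 TPM. The labels name no animal, although the methods state 3 animals, so no test was run. Alternatives covered pseudocounts, filters, plates, the extremes of the fluorescence scale, cells kept or left out and TPM scaling. Some single genes are not reported here.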

Additional observations from a re-analysis of the deposited data

Results flagged for a closer look

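Among 32 sets of cells looked at (8 measures in the bright and the dim cells of each plate), 5 had a cell that stood apart by Dixon's criterion. It was applied to log2(TPM + 1) for gene levels, which are given below as TPM. Chance meets it in about 1 in 20 groups of normally distributed values, and the distribution here was not checked. The bright cell A11 of FACS051_5, which also had the fewest genes, had a summed TPM of 704085, against 835830 to 907227 in the other bright cells of that plate. Adora2a was listed at 0 in that cell and lay between 43.8 and 403 TPM in the others. In the dim cells of that plate, Adora2a was 0.547 TPM in cell B05 and between 50.0 and 333 TPM elsewhere, and Gpr6 was 2.10 TPM in cell A03 and between 137 and 430 TPM elsewhere. In the dim cells of FACS086_4, mitochondrially encoded mRNAs held 11.9% of the TPM of cell C04 and between 4.95 and 7.57% elsewhere.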

How the results depend on the processing

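The direction of the Drd2 difference and of the difference in genes found held under every alternative run, and no alternative turned it. The log2 fold of Drd2 lay between -2.49 (FACS086_4 alone) and -0.38 (FACS051_5 alone, or without the 2 cells of highest Drd2). Among cells with at least 4000 genes it was -1.92. With each cell left out in turn it lay between -1.80 and -0.92, the weakest without the dim cell A02 of FACS086_4. The difference in genes found was -1780 on FACS086_4 alone, -2066.5 between the upper and lower 33.3% of each plate by fluorescence, -983.5 among cells with at least 4000 genes, -1626 for genes above 0 TPM and -785 for genes above 10 TPM, and it lay between -1402 and -1185.5 with each cell left out in turn. The counts of genes moved most. Genes more than 2-fold higher and lower on both plates numbered 146 and 452 with a pseudocount of 10 TPM, 581 and 1542 with a mean of at least 1 TPM, 586 and 1570 with no filter on the mean, and 1 and 1 among genes found in every cell, an alternative added after seeing the data. By the difference of mean log2(TPM + 1), 100 were higher, and 759 were lower. Of the single genes named, Tac1 reversed, to -0.60 among cells with at least 4000 genes and to -0.65 without its highest cell, and Kcnma1 reversed, to -0.27, by the difference of mean log2(TPM + 1). The other 38 of the 40 genes recomputed (the 24 ranked genes and 16 others named past 2-fold on both plates) kept their direction in the 6 alternatives run for them, although Mkln1 came to -0.66 among cells with at least 4000 genes. No paired analysis was possible because the result comes from no test, and the labels name no animal. Precision is limited by 8 or 9 cells per group and plate, by an unknown depth, and by genes listed at 0, for which absence and loss in cDNA synthesis cannot be told apart.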
